A study of Danio rerio with 2 samples.

Results

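The cells described here are the Leydig cells of the adult zebrafish testis, the steroid-making cells of the tissue between the germ cell cysts. They were chosen by measured values, on the messenger RNA of the hormone gene insl3 and of the steroidogenic genes star, cyp17a1, cyp11c1 and hsd3b1. A barcode (the tag of 1 droplet, taken as 1 cell) was a member when it had at least 200 detected genes, at most 10% of its UMIs on mitochondrially encoded (mt-) genes, insl3 at 1% or more of its UMIs, and a UMI on at least 2 of the 4 steroidogenic genes. A UMI is a molecular tag that counts each captured RNA molecule once. The rule found 59 Leydig cells, 15 in replicate 1 and 44 in replicate 2, among 9000 cells within the same limits on genes and mt- UMIs. The cells they were compared with, called the rest, were the 8029 cells within those limits in which insl3 took less than 0.1% of UMIs. A further 912 cells had insl3 at 0.1% or more without meeting the rule and entered neither side.

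Leydig cells take cholesterol into the mitochondrion through the Star protein, where Cyp11a1 cuts its side chain to give pregnenolone, and the enzymes Hsd3b and Cyp17a1 turn this into androgens. In fish the main androgen of the testis is 11-ketotestosterone, which needs an 11-beta-hydroxylase (cyp11c1) and an 11-beta-hydroxysteroid dehydrogenase (hsd11b2). Insl3, a peptide hormone of the relaxin family, is made by Leydig cells across vertebrates and in zebrafish acts on spermatogonia.

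The study made single-cell RNA libraries from testes of zebrafish (Danio rerio) aged 6 months, with 1 library from each of 2 replicates and no treatment or other condition. Testes were dissociated with trypsin at 37 °C, and the 3′ ends of transcripts were sequenced on the 10x Genomics platform. The labels call the fish wild-type in one protocol and transgenic in another, the study's methods name AB/Tübingen males, and the sources used here do not say how many fish went into each suspension. Both classes of cells came from the same 2 suspensions, so every test below rests on 2 sums of cells per class, and its p-value measures the spread between 2 libraries.

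The libraries held 34153824 UMIs in 3984 barcodes (replicate 1) and 52845050 UMIs in 5996 barcodes (replicate 2). The Leydig cells held 223142 and 745730 of these UMIs. Both libraries shared 8 barcode sequences, of which 0 belonged to Leydig cells. Leydig cells made up 0.437% of the cells within limits in replicate 1 (exact binomial 95% interval 0.245 to 0.720) and 0.790% in replicate 2 (0.575 to 1.06). These intervals cover counting error only, and dissociation decides in part which cells reach a droplet. Some insl3 RNA was also found in other cells, at 34.9 CPM in all cells that were no Leydig cells in replicate 1 and 158 CPM in replicate 2, where CPM stands for UMIs of a gene per 1000000 UMIs of the class of cells.

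Single Leydig cells devoted a large part of their captured RNA to 1 hormone. The share of UMIs on insl3 had a lowest value of 7.01%, a median of 13.2% and a highest value of 19.2% in the 15 cells of replicate 1, and of 1.08%, 14.0% and 25.8% in the 44 cells of replicate 2. It reached 10% in 13 of 15 and 34 of 44 cells, and 20% in 0 and 7 cells. In replicate 1 there was a wide gap around the limit, since the lowest Leydig cell stood at 7.01% and the highest cell outside at 0.259%. In replicate 2 the lowest member had 1.08%, the next 5.15%, and the highest cell outside had 1.00%, from 7 insl3 UMIs among 699 with a UMI on 1 of the 4 steroidogenic genes. The lowest member was unlike the others, with 1 star UMI among 11802 UMIs and 161 UMIs on germ cell markers (1.36% of its UMIs).

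**Figure D1:**
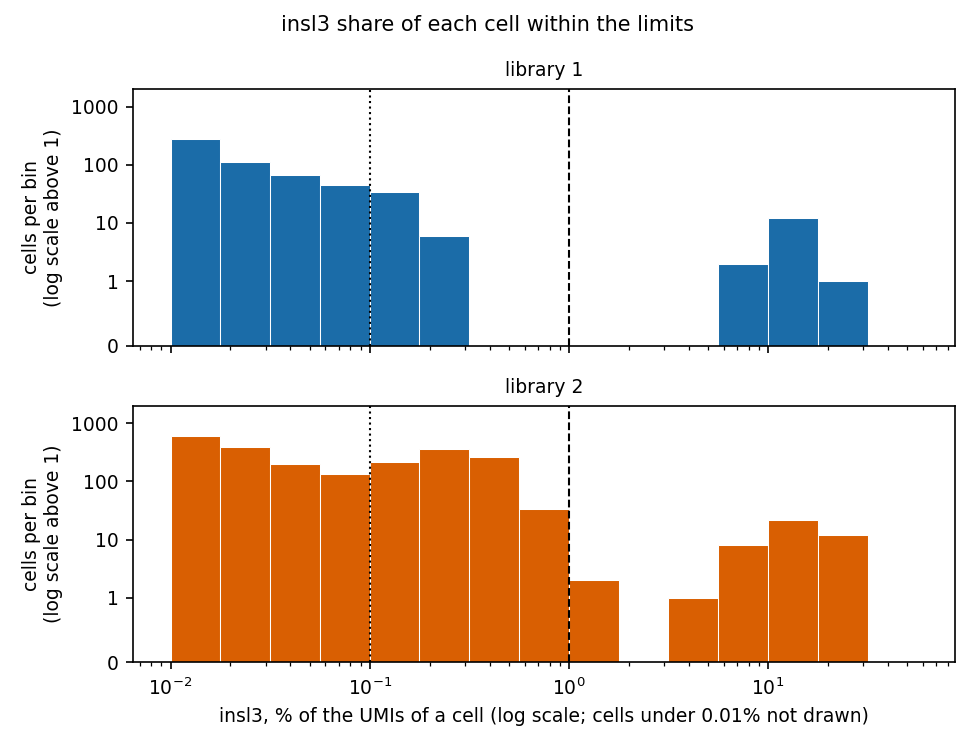
Number of cells by the percentage of their UMIs on insl3 (log axis) in replicate 1 (library 1) and replicate 2 (library 2), with cell numbers on a log axis above 1, a dotted line at 0.1% and a dashed line at 1%. The Leydig cells right of the dashed line had medians of 13.2% and 14.0%. In replicate 2 the cells outside the rule reached 1.00%, and 1 such cell lies just right of the dashed line.

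The 4 steroidogenic genes of the rule were found together. Each of the 59 cells had UMIs on all 4 except 1 cell of replicate 2 that had 0 hsd3b1 UMIs. For star, the cholesterol carrier, the lowest, median and highest shares were 0.347%, 1.48% and 2.69% of UMIs in replicate 1 and 0.00847%, 1.17% and 3.04% in replicate 2. For cyp17a1, which makes the androgen skeleton, they were 0.489%, 0.881% and 1.48% in replicate 1 and 0.0254%, 0.438% and 0.951% in replicate 2. The cyp17a1 ranges of both replicates overlapped, with the replicate 1 median close to the top of the range in replicate 2. For cyp11c1, the 11-beta-hydroxylase, they were 0.148%, 0.237% and 0.469% against 0.0402%, 0.197% and 0.415%. For hsd3b1, which converts pregnenolone to progesterone, they were 0.0439%, 0.117% and 0.296% against 0, 0.116% and 0.237%, and the replicates differed little in either gene. These 5 genes chose the cells, so their levels are given with no test.

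**Figure D2:**
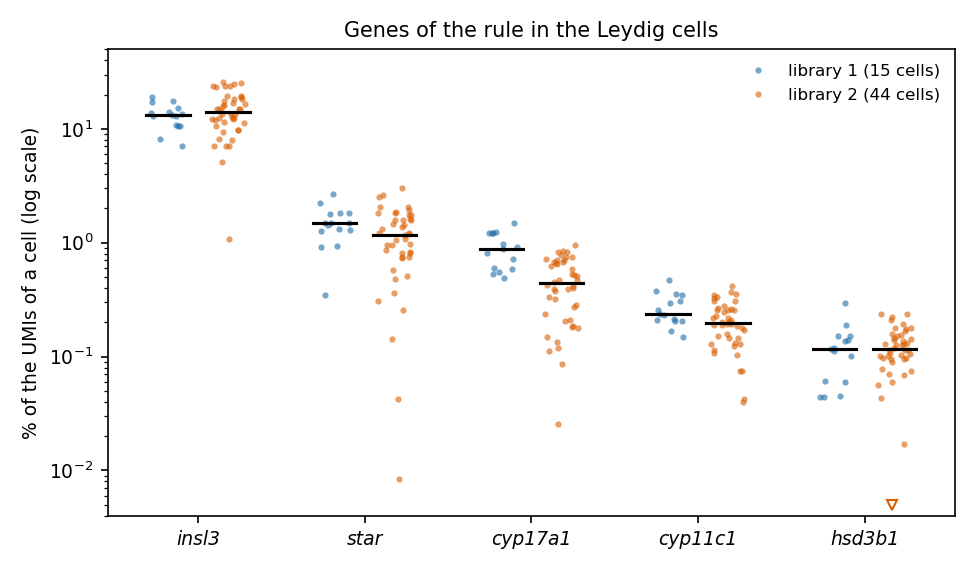
Percentage of each Leydig cell's UMIs on the 5 genes of the rule (log axis), 1 point per cell, with the 15 cells of replicate 1 (library 1) beside the 44 of replicate 2 (library 2), bars at the medians and an open triangle for the cell with 0 hsd3b1 UMIs. The star medians were 1.48% and 1.17%, and the cyp17a1 medians 0.881% and 0.438%.

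Among Leydig cells the steroidogenic genes did not follow one another in the same way in both replicates. Spearman's rho was taken between shares of the UMIs other than insl3. For star and cyp11c1 it was -0.68 across the 15 cells of replicate 1 and -0.016 across the 44 of replicate 2. For star and cyp17a1 it was -0.14 and 0.35, for star and hsd3b1 0.20 and 0.18, and for cyp17a1 and cyp11c1 0.21 and 0.40. For cyp17a1 and hsd3b1 it was 0.325 and 0.069, and for cyp11c1 and hsd3b1 0.24 and 0.18. Between star and insl3, the latter as a ratio to the other UMIs, it was 0.19 and 0.50. The cells of a replicate share 1 library, and both values of a pair have the same divisor. These correlations thus describe the cells and carry no test.

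Leydig cells held more RNA spread over fewer genes than the rest. Their UMIs per cell had a lowest value, median and highest value of 1706, 15968 and 24910 in replicate 1 and of 2347, 16464.5 and 27923 in replicate 2, where the medians of the rest were 7194 and 7489. Detected genes had medians of 2067 and 2054, against 2680.5 and 2727 in the rest. Thinned to 500 UMIs per cell, which left out 0 cells, Leydig cells showed a median of 232 and 210 genes and the rest 381 and 380. In the thinned cells insl3 took a median of 59 and 74 of the 500 UMIs in Leydig cells and 0 in the rest. The rule chose both classes by insl3, so this contrast was set in advance. UMIs on insl3 leave fewer for other genes, and their part in the lower gene numbers was not tested. The mt- share had medians of 3.86% and 3.67% in Leydig cells and of 2.05% and 1.87% in the rest. Other somatic cells with Sertoli or immune markers, described below, had mt- medians of 3.74% and 3.49%, so this share was not particular to Leydig cells. Those cells had medians of 1150 and 1019.5 genes, at 4230 and 4693 UMIs per cell.

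The label was checked against markers of other cell types. Germ cell markers took 0.0305% and 0.0776% of Leydig UMIs against 0.836% and 0.835% in the rest, with a median over Leydig cells of 0.0185% and 0.00932%. Germ cell RNA was nonetheless present in some cells, up to 0.180% of UMIs in replicate 1 and up to 1.36%, 0.598% and 0.444% in the 3 highest cells of replicate 2. Endothelial markers had 0 and 2 UMIs, stromal fibroblast markers 4 and 5, red blood cell markers 1 and 1, and markers of the interrenal gland (the fish counterpart of the adrenal cortex) 2 and 0. The receptor gene mc2r, which marks interrenal cells, had 1 and 0 UMIs, and the 21-hydroxylase gene cyp21a2 had 0 in both replicates. No UMI fell on the leukocyte genes ptprc, lcp1, spi1 and laptm5, where a count of 0 in the 968872 UMIs of all Leydig cells allows up to 3.10 CPM. The list of smooth muscle and peritubular myoid markers took more of the Leydig UMIs than of those of the rest, at 0.0251% and 0.0219% against 0.0131% and 0.0139%, with a UMI in 13 of 15 and 40 of 44 cells. Its UMIs, 56 and 163 in number, lay mainly on the myosin light chain gene myl9 (ENSDARG00000008030), with 35 and 82, and the tropomyosin gene tpm1, with 19 and 72. The remaining genes with a UMI were tpm2, with 1 and 7, the myh11 copy ENSDARG00000100972, with 1 and 1, and the myl9 copy ENSDARG00000038123, with 0 and 1, while 10 of the 15 genes on the list, acta2 and both tagln copies among them, had 0. Whether these UMIs come from Leydig cells or from other cells was not tested.

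Some genes that usually mark other cells were nonetheless seen in Leydig cells. On the marker list of Sertoli cells, which nurse germ cells, cxcl12 and inha had 0 UMIs in Leydig cells. The gene gsdf had 3 and 17 UMIs. Of the 17 genes on the Sertoli list, 10 had a UMI in Leydig cells. Among them were fshr, found in 12 of 15 and 21 of 44 Leydig cells, and amh, found in 7 of 15 and 18 of 44. Both were called higher than in the rest by the test described below. Another was sox9, found in 2 of 15 and 8 of 44 Leydig cells. The whole Sertoli list took 0.0282% and 0.0314% of Leydig UMIs, against 0.0167% and 0.0293% of those of the rest. The keratin gene krt8 was at 49.3 and 81.8 CPM in Leydig cells and at 19.7 and 33.6 in the rest. The chemokine receptor gene cxcr4 (ENSDARG00000041959), which was on the immune list, stood at 224 and 295 CPM against 11.5 and 11.9. It was found in 10 of 15 and 38 of 44 Leydig cells. The immune list as a whole took 0.0417% and 0.0345% of UMIs, against 0.0202% and 0.0145% in the rest, and only 3 and 6 of its 16 genes had a UMI. The UMIs of cd74b, an antigen presentation gene, numbered 27 and 18.

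To ask which genes beyond the rule marked Leydig cells, UMIs were summed over cells per replicate and class and compared with the quasi-likelihood test of edgeR. P-values were adjusted by the Benjamini-Hochberg method over all 18822 genes tested, and a gene was called at an adjusted p under 0.05. Of the genes tested, 1620 were higher in Leydig cells (8.61%) and 3006 lower (16.0%), so 35.0% of calls were higher. This split depends on the scaling. The default scaling of edgeR (TMM) placed folds 1.13 log2 units above those from plain totals of UMIs, and with plain totals 989 genes were higher and 9204 lower (9.70% higher). DESeq2 called 2288 higher and 2184 lower (51.2% higher). With insl3 at 2% or more, which left out the lowest member with its germ cell RNA, 1655 genes were higher and 3127 lower. The median log2 fold change of all genes was -1.27 in the edgeR fit, and medians of gene lists are given below as their distance from it. The lists were chosen with earlier results of these data known. For every list below, the count of calls beside the share of all genes is therefore a description only. Levels are given in CPM, which hold no scaling factor and no term for gene length, since each molecule is counted once by its 3′ end.

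Genes of steroid synthesis outside the rule were higher in Leydig cells at several steps of the pathway. Of 39 genes on the list, 34 were tested, 12 were called higher and 4 lower in edgeR, beside 8.61% and 16.0% of all genes, and 11 of the 12 were also called higher with plain totals. With the library as a block in the fit, 12 were higher and 3 lower. The list's median log2 fold change lay 1.89 above that of all genes. Together the 39 genes took 1.01% and 0.542% of Leydig UMIs in replicates 1 and 2, against 0.0773% and 0.0774% in the rest.

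The side-chain cleavage enzyme that opens the pathway had 2 copies under the symbol cyp11a1. In Leydig cells the copy ENSDARG00000092696 had a lowest, median and highest share of 0.0266%, 0.0712% and 0.207% of UMIs in replicate 1 and of 0, 0.0531% and 0.145% in replicate 2. It was found in 15 of 15 and 42 of 44 Leydig cells but in 0.474% and 0.581% of the cells of the rest. Its level of 717 and 646 CPM against 0.549 and 0.655 gave a log2 fold change of 11.18 ± 0.32 (SE, adjusted p = 3.57e-06, edgeR). Here and below the SE is approximate, the size of the log2 fold change divided by the square root of the test's F statistic. The copy ENSDARG00000002347 was at 121 and 41.6 CPM against 2.63 and 2.72, with a log2 fold change of 5.74 ± 0.41 (adjusted p = 1.06e-04). Both copies were therefore higher in each replicate. UMIs of close copies may be split between them by the counting.

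The electron donors of mitochondrial steroid enzymes followed cyp11a1. Ferredoxin fdx1b took 0.0623%, 0.247% and 0.595% of UMIs (lowest, median and highest cell) in replicate 1 and 0.00847%, 0.180% and 0.631% in replicate 2, and was found in every Leydig cell. Its level was 2581 and 1857 CPM against 9.25 and 11.6 in the rest (log2 fold change 8.77 ± 0.31, adjusted p = 3.82e-06, edgeR). The ferredoxin reductase gene fdxr was at 148 and 157 CPM against 1.37 and 1.31 (7.95 ± 0.25, adjusted p = 3.57e-06). The other ferredoxin gene, fdx1, was present in the rest at 30.7 and 33.6 CPM and higher in Leydig cells by 1.68 ± 0.24 log2 units, a call that was not made with plain totals. Of the donors of microsomal enzymes, por (ENSDARG00000059035) was at 345 and 127 CPM against 12.1 and 12.3, and cyb5a, which aids the lyase step of Cyp17a1, at 255 and 255 against 34.7 and 45.5. Every one of these donors was thus higher in Leydig cells in both replicates.

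The dehydrogenase gene on the way to 11-ketotestosterone, hsd11b2, had unlike levels in both libraries, a difference of 1 library against 1 that has no replicate check. The share of UMIs on hsd11b2 ran from 0 through a median of 0.389% to 1.07% in the 15 cells of replicate 1, and from 0 through 0.128% to 0.430% in the 44 cells of replicate 2. The cells of the replicates overlapped, and it was found in 14 of 15 and 41 of 44 Leydig cells. Summed over cells, the level was 4266 (exact Poisson 95% interval 4000 to 4546) and 1502 (1415 to 1592) CPM, intervals of counting error only, against 1.5 and 4.18 in the rest. The log2 fold change was 10.94 ± 0.73 (adjusted p = 7.58e-05, edgeR), and without replicate 2 it was 12.33 and without replicate 1 it was 9.72.

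Further genes that act on steroids were also higher. The second cyp17 gene, cyp17a2, was at 197 and 133 CPM against 0.672 and 0.410 (log2 fold change 9.30 ± 0.29). The sulphotransferase genes sult2st2 and sult2st1, which add sulphate to steroids, were at 596 and 286 and at 569 and 197 CPM in Leydig cells, against 42.2 and 44.0 and against 27.3 and 24.7 in the rest. The genes lower in Leydig cells were tspo, a mitochondrial cholesterol-binding protein (-1.38 ± 0.26), hsd3b7, an enzyme of bile acid synthesis (-2.15 ± 0.34), hsd17b7 (-2.42 ± 0.68, a call that the block ended) and hsd17b8. The last had 0 UMIs in Leydig cells and was at least 9.59-fold lower in CPM, taking 3 counts over all Leydig cells as the floor. The value of tspo lay close to the median of all genes, -1.27. For hsd17b3, which makes testosterone from androstenedione in the testis of mammals, only 1 and 3 UMIs were found, a level of 4.48 and 4.02 CPM against 8.94 and 10.3 (log2 fold change -0.08 ± 0.59, adjusted p = 0.926). The aromatase gene cyp19a1 and both srd5a2 copies had 0 UMIs in Leydig cells and too few elsewhere to be tested.

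**Figure D3:**
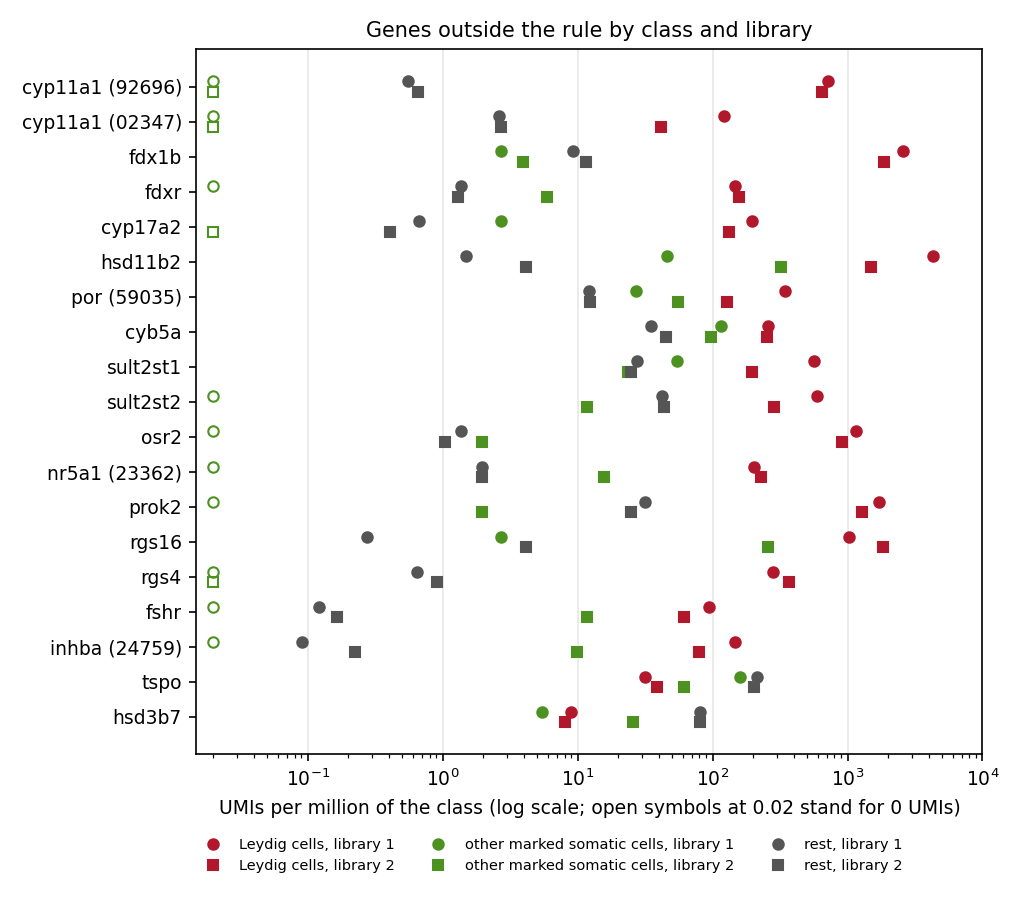
Levels in CPM (UMIs per 1000000, log axis) of genes outside the rule in Leydig cells, the rest and marked somatic cells (cells with Sertoli or immune markers), 1 point per replicate (library) and class, with open symbols for 0 UMIs. For cyp11a1 (ENSDARG00000092696) Leydig cells were at 717 and 646 and the rest at 0.549 and 0.655, and hsd11b2 at 4266 and 1502 against 1.5 and 4.18.

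Genes for making and supplying cholesterol were called in both directions. Of 46 tested, 8 were higher and 8 lower in edgeR, beside 8.61% and 16.0% of all genes, and with the library as a block 6 were higher and 2 lower. The list took 0.131% and 0.109% of Leydig UMIs, against 0.128% and 0.129% of those of the rest. The list's median lay 0.50 log2 units above that of all genes. The haem-binding protein gene pgrmc1 was at 538 and 370 CPM against 54.7 and 65.2 (3.95 ± 0.22). The gene of the last step of synthesis, dhcr7, was at 224 and 153 against 9.86 and 11.9 (5.13 ± 0.21), and the transporter gene gramd1a, which carries cholesterol from the plasma membrane to the endoplasmic reticulum, at 143 and 153 against 18.7 and 20.2 (4.05 ± 0.21). The lysosomal cholesterol carrier npc2 (1.92 ± 0.26), the efflux pump abca1 (3.33 ± 0.40) and the regulator srebf2 (1.90 ± 0.38) were also called higher, srebf2 not with plain totals. Of the genes lower, the sterol reductase genes lbr and tm7sf2 fell by 2.65 and 2.16 on the log2 scale, and both calls held with the block. The synthesis genes hmgcs1, msmo1, ebp and sc5d and the lysosomal transporter npc1 were called lower on 3 to 6 UMIs each, and the block ended these 5 calls. The receptor gene ldlra was called higher on 0 and 5 UMIs, and that call too ended with the block.

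Of the transcription factors of the gonadal soma, 14 of 38 tested were called higher and 1 lower, beside 8.61% and 16.0% of all genes, 13 of the 14 were also called with plain totals, and 23 were not called. The fit with the block called 12 higher and 1 lower. The list took 0.223% and 0.192% of Leydig UMIs and 0.0286% and 0.0295% of those of the rest, but 0.347% and 0.299% of those of the other somatic cells that carry Sertoli or immune markers (marked somatic cells). The list's median lay 2.17 log2 units above that of all genes. The zinc finger gene osr2, known from kidney and limb development, had the most UMIs of the list in Leydig cells. It had a lowest, median and highest share of 0, 0.117% and 0.231% of UMIs in replicate 1 and 0, 0.0867% and 0.173% in replicate 2, and was found in 14 of 15 and 43 of 44 Leydig cells, against 1.3% and 1.01% of cells of the rest. Its log2 fold change was 10.80 ± 0.33 (adjusted p = 3.57e-06, edgeR).

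The steroidogenic factor nr5a1, which switches on steroid enzyme genes, had 2 copies, and both were higher. The copy ENSDARG00000023362 was at 202 and 229 CPM against 1.95 and 1.95 (7.91 ± 0.27) and was found in 13 of 15 and 42 of 44 cells. The copy ENSDARG00000103176 was at 76.2 and 36.2 against 2.14 and 1.68 (5.80 ± 0.40). The orphan receptor genes nr2f1 (ENSDARG00000052695) and nr2f2 were at 197 and 188 and at 67.2 and 68.4 CPM, the homeobox gene meis1 at 139 and 154, and each was called higher. Among the receptors for sex steroids, esr2 (ENSDARG00000034181), an oestrogen receptor, was at 143 and 92.5 CPM against 9.13 and 10.6 (4.57 ± 0.22), and the androgen receptor gene ar at 40.3 and 34.9 against 10.7 and 12.4 (2.78 ± 0.29). The progesterone receptor gene pgr was called higher on 7 and 8 UMIs (8.29 ± 0.72).

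Of the GATA factors, the genes gata6 and gata5 were higher, at 13.4 and 38.9 CPM against 1.40 and 1.45 and at 13.4 and 22.8 against 2.99 and 2.85. The gene gata4, which in mammals works with Nr5a1 on steroid genes, had 0 UMIs in Leydig cells. No UMI of lhx9, nr0b1, tcf21 or either arx copy was found in Leydig cells either. The rest held 48 and 69 UMIs of gata4, so no difference was detectable at this depth (adjusted p = 0.399, edgeR). The gene called lower was meis1a (-2.91 ± 0.63), with 0 and 2 UMIs.

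Of the hormone, receptor and local signal genes, 20 of 66 tested were called higher and 4 lower, beside 8.61% and 16.0% of all genes, and 16 of the 20 were also called with plain totals. The fit with the block called 18 higher and 3 lower. The list took 0.484% and 0.501% of Leydig UMIs, against 0.0725% and 0.0772% in the rest and 0.112% and 0.699% in marked somatic cells, and its median lay 1.55 log2 units above that of all genes. Both gonadotropin receptor genes were called higher. The follicle-stimulating hormone receptor gene fshr had 21 and 46 UMIs in Leydig cells, found in 12 of 15 and 21 of 44 cells with at most 3 and 5 UMIs in a cell. Only 4 and 8 UMIs were found in all cells of the rest, and the log2 fold change was 9.99 ± 0.35 (adjusted p = 3.82e-06, edgeR). The luteinising hormone receptor gene lhcgr had 4 and 3 UMIs in Leydig cells, 1 in each of 4 and 3 cells, against 14 and 28 in the rest (5.02 ± 0.82, adjusted p = 0.00448). In mammals Fshr is known mainly from Sertoli cells, while in zebrafish it is also known from Leydig cells.

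Among secreted factors was prok2, the gene of a small peptide that acts on G protein-coupled receptors. Its share of UMIs was 0.0366%, 0.144% and 0.385% (lowest, median and highest cell) in replicate 1 and 0.0254%, 0.114% and 0.314% in replicate 2. It was found in every Leydig cell, and its level of 1707 and 1285 CPM stood against 31.7 and 25.1 in the rest (6.76 ± 0.29). The neuropeptide gene nts was at 117 and 135 CPM against 0.214 and 0.983 (8.73 ± 0.51). The activin subunit gene inhba had 2 copies, ENSDARG00000024759 at 148 and 79.1 against 0.0916 and 0.225 (10.27 ± 0.39) and ENSDARG00000012671 at 112 and 125 against 0.855 and 3.69 (6.78 ± 0.61). The Notch ligand gene jag1b was at 134 and 76.4 against 3.42 and 5.71 (5.47 ± 0.35). These genes were higher in Leydig cells of both replicates.

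The hormone gene amh, usually counted as a Sertoli gene, was called higher in Leydig cells (4.48 ± 1.07, adjusted p = 0.020), at 49.3 and 49.6 CPM. It was found in 7 of 15 and 18 of 44 Leydig cells, and in 0 of 47 and 14 of 52 other somatic cells gated on Sertoli or immune markers. A single Leydig cell held at most 4 and 10 amh UMIs, and a single marked somatic cell at most 0 and 79. As a share of a cell's UMIs, the highest were 0.0186% and 0.0367% in Leydig cells and 0 and 0.375% in marked somatic cells. Sertoli markers took 0.112% and 1.18% of the UMIs of marked somatic cells, so those of replicate 1 say little about Sertoli cells. Detection also depends on depth, with median UMIs per cell of 15968 and 16464.5 in Leydig cells and 4230 and 4693 in marked somatic cells. The relaxin gene rln3a was called higher too, but its 0 and 21 UMIs all came from 1 cell of replicate 2. The signal genes called lower included the receptor gene notch2 (-1.28 ± 0.28) and the notch1 copy ENSDARG00000103554 with 0 UMIs (at least 4.86-fold lower in CPM). The inhibin subunit gene inhbb (-2.52 ± 0.64) and the protein kinase A subunit gene prkar1ab (-1.25 ± 0.31) were also called lower, and the block ended both of these calls. The values of notch2 and prkar1ab lay close to the median of all genes, -1.27. The growth factor gene igf3 had 0 UMIs in Leydig cells.

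Several genes of the list act inside the cell on signals of receptors. The regulators of G protein signalling rgs16 and rgs4 were at 1026 and 1844 CPM against 0.275 and 4.18 (10.41 ± 1.15) and at 282 and 371 against 0.641 and 0.901 (9.82 ± 0.37). For rgs16 the lowest, median and highest shares of a cell were 0, 0.0798% and 0.366% in replicate 1 and 0.0169%, 0.175% and 1.1% in replicate 2. The phosphodiesterase gene pde4b, which breaks down cyclic AMP, was at 161 and 126 CPM against 8.12 and 10.1 (5.02 ± 0.22). The protein kinase A subunit gene prkar2a (1.86 ± 0.19) and the AMP kinase subunit gene prkag2 (5.68 ± 0.23) were also called higher.

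The genes of the endoplasmic reticulum that bring in and fold secreted proteins were often higher in Leydig cells, with 36 of 51 tested called higher and 2 lower in edgeR, beside 8.61% and 16.0% of all genes. With the block 32 were called higher and 0 lower. Of the 36, 26 were also called higher with plain totals, and dad1, ddost, rpn1, srp54 and the serp1 copy ENSDARG00000099439 turned below 0 under that scaling. Together the list took 1.28% and 1.26% of Leydig UMIs, against 0.440% and 0.463% in the rest and 0.468% and 0.557% in marked somatic cells. Its median lay 2.95 log2 units above that of all genes. The translocon gene sec61g had a median share of 0.286% and 0.262% per Leydig cell, was found in every Leydig cell, and was at 2761 and 2682 CPM against 267 and 292 (4.35 ± 0.26). The serp1 copy ENSDARG00000076223, which protects new membrane proteins, was at 2828 and 2619 against 141 and 162 (5.23 ± 0.27), and ssr3, a part of the translocon complex, at 959 and 784 against 66.3 and 75.6 (4.67 ± 0.24). The chaperone gene hspa5 stood at 390 and 920 CPM against 174 and 242 (2.83 ± 0.46), and the stress regulator xbp1 at 229 and 292 against 75.5 and 83.5. The protease gene furin, which cuts prohormones, was at 175 and 101 CPM against 14.3 and 14.2 (4.24 ± 0.22). Heat-shock genes moved in the same direction and are given below, and their part in these values was not tested.

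Ribosomal protein genes took 31.3% and 30.6% of Leydig UMIs against 20.4% and 19.9% in the rest. For mitochondrial protein import and redox defence 8 of 36 genes tested were called higher and 3 lower (8 and 2 with the block), beside 8.61% and 16.0% of all genes. The list took 0.562% and 0.401% of UMIs against 0.556% and 0.600%. The co-chaperonin gene hspe1 was at 1183 and 732 CPM against 199 and 254 (3.10 ± 0.25). The peroxidase genes gpx1a (4.07 ± 0.23), gpx4a (2.71 ± 0.26) and prdx3 (2.13 ± 0.22), which remove peroxides, were called higher. The import genes tomm20a (-1.56 ± 0.31) and timm23a (-1.27 ± 0.24) were called lower, but both values lay close to the median of all genes, -1.27. Germ cell markers were called lower in 13 of 19 and higher in 0, among them ddx4, an RNA helicase of germ cells, at 71.7 and 73.8 CPM against 1913 and 1920 (-3.61 ± 0.26). Of 12 Sertoli genes tested, 4 were called higher and 1 lower (7 and 1 with the block). The Sertoli list's median lay 3.41 log2 units above that of all genes. Of the other marker lists, 2 of 13 immune genes and 3 of 13 smooth muscle genes (myl9, tpm1 and the myh11 copy with 1 and 1 UMIs) were called higher and 0 lower. With the block 2 smooth muscle genes were called higher. Among 11 stromal genes 2 were called lower (1 with the block) and 0 higher. No call was made among the 9 endothelial, 5 red blood cell and 3 interrenal genes tested. The counts of all these marker lists stand beside the same 8.61% higher and 16.0% lower of all genes. The count of stromal genes called lower lay near that share.

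The largest rises outside the rule were mostly genes of steroid synthesis and signalling described above. They were taken from called genes with a symbol, the same sign in both replicates and at least 10 UMIs per replicate in Leydig cells. First came fxyd2, a regulator of the sodium pump, at 89.6 and 20.1 CPM against 0 and 0.0410 (11.57 ± 0.89). The phosphatase regulator gene ppp1r1c was found in every Leydig cell, with a median share of 0.176% and 0.172% of UMIs, and was at 1492 and 1741 CPM against 2.32 and 2.46 (10.48 ± 0.38). The calcium-binding membrane protein gene mctp1 was at 237.5 and 225 against 0.855 and 0.840 (9.17 ± 0.25), and rasd1, a small G protein, at 125 and 87.2 against 0.153 and 0.696 (8.83 ± 0.49). These genes were chosen by the size and the shared sign of their rises, so their height over the rest was set by the choice.

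The largest falls were genes at 0 UMIs in Leydig cells, so that only a bound can be given. The gene si:ch211-113a14.24 was at least 18.9-fold lower, the galactosyltransferase gene b3galt2 at least 14.8-fold, parpbp, a regulator of DNA recombination, at least 14.1-fold, and the chromatin remodeller gene chd5 at least 12.7-fold. The floor of 3 counts, which is 3.10 CPM over both replicates, sets these bounds. They are ratios of CPM and hold no scaling factor. TMM placed folds 1.13 log2 units above those from plain totals, so with TMM these bounds would be smaller.

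By level, the most abundant transcripts outside the rule and the ribosomal and mt- genes were of varied kinds. The non-coding nuclear RNA malat1 took a median of 3.95% and 3.82% of UMIs per Leydig cell, but ranged from 0.117% to 8.56% in replicate 1 and from 0.0426% to 9.87% in replicate 2. The gene si:dkey-238c7.13, which has no function in its name, was at 12212 and 14857 CPM against 45.9 and 179 (8.0 ± 0.74). It took a median share of 0.647% and 1.3% per Leydig cell, found in 14 of 15 and 44 of 44 cells. Marked somatic cells carried it too, at 2311 and 10899 CPM, in 28 of 47 and 45 of 52 cells with medians of 0.0572% and 0.975%. A further unnamed gene, si:dkeyp-1h4.9, was at 4472 and 5581 against 44.4 and 56.0 (7.73 ± 0.38).

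Heat-shock genes took unlike shares of Leydig UMIs in the 2 replicates, again 1 library against 1. This list of 11 genes was added after its values had been seen. Together the genes took 1.03% of Leydig UMIs in replicate 1 and 3.15% in replicate 2, with a lowest, median and highest cell of 0, 0.551% and 3.55% and of 0.228%, 2.86% and 11.8%. In the rest they took 0.329% and 0.739%, and in marked somatic cells 5.43% and 4.93%. The gene hsp70l alone was at 4948 and 13966 CPM in Leydig cells against 1031 and 2893 in the rest (3.42 ± 0.68, adjusted p = 0.00963, edgeR). Of the 11 genes, 9 were called higher in Leydig cells and 0 lower, beside 8.61% and 16.0% of all genes. Of the 9, hsp90aa1 was not called with plain totals. The list was chosen with its values known, so this count is a description only. Spearman's rho between a cell's heat-shock share and its insl3 share was 0.089 across 15 cells and -0.38 across 44, a description of shares that have a common total.

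To see whether these differences were those between soma and germ line, Leydig cells were compared with 99 other somatic cells of the rest, 47 in replicate 1 and 52 in replicate 2, that carried at least 3 genes and 0.3% of UMIs of the Sertoli or the immune list. These marked cells were unlike between replicates, with Sertoli markers at 0.112% and 1.18% of their UMIs and immune markers at 0.860% and 0.155%. Of 3416 genes tested, 25 were called higher in Leydig cells (0.732%) and 26 lower (0.761%) in edgeR, while 304 were higher and 511 lower at an unadjusted p under 0.05. With the library as a block 0 genes were called in either direction, where 284 and 447 had an unadjusted p under 0.05, and DESeq2 called 62 higher and 230 lower. TMM placed folds 0.44 log2 units above those from plain totals, which gave 4 higher and 3 lower. The calls below are those of the fit without the block.

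Among the 25 were 3 genes of steroid synthesis, the cyp11a1 copy ENSDARG00000092696, fdx1b and cyp17a2. The first had 0 UMIs in marked somatic cells of both replicates, and fdx1b had 1 and 2 (9.51 ± 0.58, adjusted p = 0.0226, edgeR). The other genes called higher and already named were osr2 (9.80 ± 0.92), prok2 (10.32 ± 0.89), rgs4, ppp1r1c, mctp1, rasd1, prkag2 and gramd1a. The water channel gene aqp12, with 0 UMIs in marked somatic cells, was at 264 and 331 CPM in Leydig cells and 18.6 and 21.5 in the rest. By contrast hsd11b2 was not called, at 4266 and 1502 CPM in Leydig cells and at 46.0 and 321 in marked somatic cells, where it was found in 5 of 47 and 20 of 52 cells. The genes inhba, nr5a1 and rgs16 were likewise not among the calls, but a missing call does not show equal levels. In marked somatic cells nr5a1 (ENSDARG00000023362) was found in 0 of 47 and 7 of 52 cells, against 13 of 15 and 42 of 44 Leydig cells. For inhba (ENSDARG00000024759) this was 0 and 4 against 9 and 25 cells, and for rgs16 1 and 13 against 14 and 44. Detection also depends on depth, which was lower in marked somatic cells. No gene of the endoplasmic reticulum list was called (0 of 43). Of all genes tested here only 0.732% were called higher, so this count says little about the list. The list's median log2 fold change was 1.47 and that of all genes -0.08.

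Genes lower in Leydig cells than in the other somatic cells were of several kinds, immune genes among them, and those cells were gated in part on immune markers. The chemokine genes ccl25b, ccl34b.4, ccl38.6 and cxcl8b.1, the antigen presentation gene mhc2dhb and the T cell receptor gene trbc1 had 0 or 1 UMIs in the Leydig cells of each replicate. The actin gene actb2 was at 1026 and 957 CPM in Leydig cells and at 9674 and 6180 in marked somatic cells (-2.67 ± 0.33). The actin-binding peptide gene tmsb4x was at 291 and 294 against 14610 and 6958 (-4.86 ± 0.46), and arpc1b, a part of the complex that branches actin, at 40.3 and 32.2 against 624 and 638 (-3.82 ± 0.54). The retinol carrier gene rbp4 had 0 and 1 UMIs in Leydig cells and 405 and 2766 in marked somatic cells. These genes were thus low in Leydig cells of both replicates relative to cells gated on Sertoli or immune markers.

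Outside Leydig cells, insl3 RNA was common in replicate 2. At least 1 insl3 UMI was found in 26.0% of the other cells of replicate 1 and 53.1% of those of replicate 2, with medians of 7106 and 6237 UMIs per cell. By depth, insl3 was at 169 CPM in cells with up to 1000 UMIs and at 26.3 in those above 10000 in replicate 1, and at 1290 and 59.7 in replicate 2. The mean per cell was 0.122 and 0.522 UMIs in these depth classes of replicate 1, and 0.966 and 1.25 in replicate 2. The replicate 2 means were higher at middle depth. They were 1.97 in cells with over 1000 and up to 2000 UMIs, and 2.23 with over 2000 and up to 5000. The insl3 level in these 2 classes was 1336 and 655 CPM. For every 100 insl3 UMIs, Leydig cells of replicate 1 held 11.9 star and 7.0 cyp17a1 UMIs, and the other cells 7.26 and 18.2. In replicate 2 Leydig cells held 8.49 star and 3.20 cyp17a1 UMIs, and the other cells 6.51 and 6.06. The ratios of cyp11c1 and hsd3b1 lay closer to each other, at 1.41 and 0.861 inside against 1.69 and 0.864 outside in replicate 2. The 912 non-member cells with insl3 at 0.1% or more, 40 in replicate 1 and 872 in replicate 2, entered neither side. They had medians of 779 and 1433.5 UMIs and of 1 and 4 insl3 UMIs, and the source of these insl3 UMIs was not tested.

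**Figure D4:**
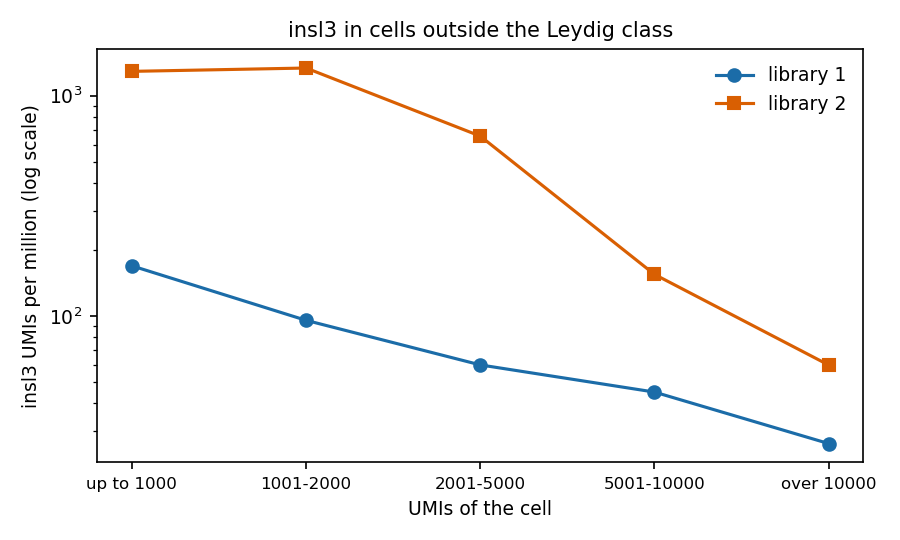
Level of insl3 in CPM (log axis) in cells that were no Leydig cells, by the UMIs of the cell, for each replicate. In cells with up to 1000 UMIs the level was 169 in replicate 1 and 1290 in replicate 2, and above 10000 UMIs it was 26.3 and 59.7.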

How the data were processed

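The authors deposited, for each replicate, a 10x matrix of raw UMI counts per gene and barcode. Per the study's methods and notes the reads were aligned to danRer11 with Cell Ranger 7.2.0, while the file header gives 6.1.2, and the annotation release is not given in the sources used here. Symbols came from a table that matched 29201 of 32520 identifiers, and copies with 1 symbol were told apart by identifier. Sets of related genes were fixed as lists, and members and lists were chosen with earlier results of these data known. Genes to name were drawn from the 5 rule genes, up to 5 genes per list by level plus all called, the 15 largest rises and 8 largest falls, and the 10 most abundant. The rises and falls needed 10 or more UMIs per replicate in the class where they were higher. Not every gene of these sets is named in the text. No doublet caller was run. The cells were not limited to 5% mt- UMIs or 7000 genes as in the study's methods, which were alternatives.

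UMIs were summed per library and class (4 sums) and tested in edgeR 4.0.16 (filterByExpr, TMM, glmQLFTest), with DESeq2 1.42.0 as an alternative, in R 4.3.3. Other values came from Python 3.11.15. Rule genes stayed in the fits and out of counts of calls. The scripts were tested on simulated data. Depth per library was 34153824 and 52845050 UMIs. Same-library deviations of both classes correlated at r = 0.056 over 18827 genes. The classes share a suspension, so a fit with library as a block was also run. It is given where it changed the counts of a list, and not every call on a named gene that it ended is marked. Alternatives were another scaling, no filter, other limits of the rule, leaving out a replicate and plain totals. The last was chosen after seeing the data.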

Additional observations from a re-analysis of the deposited data

Results flagged for a closer look

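In replicate 2, 872 cells had insl3 at 0.1% or more of their UMIs and were no members, against 40 in replicate 1, and they entered neither class. Their median depth was 1433.5 UMIs in replicate 2 and 779 in replicate 1, with medians of 4 and 1 insl3 UMIs. In the shallowest cells 1 insl3 UMI was thus enough to reach 0.1%. They drew attention as an insl3 signal, of few UMIs per cell, in cells that no comparison used.

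A further 17 barcodes, 3 in replicate 1 and 14 in replicate 2, met the insl3 and steroidogenic parts of the rule but exceeded 10% mt- UMIs. Their mt- share had a median of 16.0% and 15.5%, their insl3 share of 6.55% and 8.58%, and their UMIs per cell of 2581 and 4691. They too were a signal outside the comparisons.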

How the results depend on the processing

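The number of Leydig cells was 59 and stayed between 46 (mt- UMIs at most 5%) and 76 (no mt- limit) under the 7 other rules tried. Against the rest, plain totals of UMIs gave 989 genes higher and 9204 lower, beside 1620 and 3006 with TMM, and no other setting moved a count by over 1.5 times. The block called 1266 and 2321, of which 1237 and 2197 were also called without it, and ended 25 of the 174 calls on named genes. With plain totals 25 of 129 named genes called higher were not, and the log2 fold change reversed for dad1 (-0.33), serp1 ENSDARG00000099439 (-0.057), ddost (-0.061), rpn1 (-0.19), srp54 (-0.28) and txn (-0.96, not called in either direction with TMM). Without replicate 2 the log2 fold changes of ldlra (-6.09), esr2 ENSDARG00000016454 (-6.42) and rln3a (-6.24) were negative, and without replicate 1 they were 3.37, 3.24 and 6.08. Each of the 3 genes had 0 UMIs in the Leydig cells of replicate 1, so the negative values rest on a small count added before the log and are no bounds. Against marked somatic cells, where 25 genes were higher and 26 lower, the counts moved to 62 and 230 with DESeq2, 6 and 3 with its size factors, 187 and 945 with no filter, 4 and 3 with plain totals, and 0 and 0 with the replicate block. The cause was not tested. With 1 library left out there was no test and no new fit, only a fold change within the other library at the scaling factors of all 4 sums. Genes under about 3 counts in all Leydig cells (3.10 CPM) could not be told from 0.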
